A study of Mus musculus with 6 samples.

Results

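The mouse genes of the cyclic nucleotide phosphodiesterases and the adenylyl cyclases were compared between control and Mgat1 cKO germ cells. They were taken by name, as every measured gene whose symbol is Pde with a number and 1 letter, or Adcy with a number, and 34 of the 23152 measured genes fitted, 24 of them phosphodiesterases and 10 adenylyl cyclases. RNA of testicular germ cells from FVB males at 23 days post-partum (dpp) was hybridized to arrays of the type Mouse Gene 2.0 ST. The control males, Mgat1[F/F] by genotype, gave 3 arrays, and Mgat1 cKO males, Mgat1[F/F]:Stra8-iCre, gave the other 3. The floxed Mgat1 alleles are carried by both groups, and the mutant males also carry an iCre recombinase that the Stra8 promoter drives in spermatogonia. The MGAT1 enzyme adds the first N-acetylglucosamine branch of hybrid and complex N-glycans. Germ cell RNA of 6 mice was pooled per genotype before it was divided among the arrays, so the spread between arrays, and each p-value, covers aliquots of a pool and leaves out the variation between mice.

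Cyclic AMP is made from ATP by adenylyl cyclases and is broken down by phosphodiesterases, some of which also or only degrade cyclic GMP. The transmembrane adenylyl cyclases answer to G proteins, whereas ADCY10, the soluble adenylyl cyclase, is activated by bicarbonate and calcium and makes the cAMP that drives motility and capacitation of sperm. In postmeiotic germ cells cAMP acts through protein kinase A, and these cells also hold the transcription factor CREM. Several phosphodiesterase genes have more than 1 start of transcription and give long and short enzymes, and the arrays carry many exon level probe sets along each gene.

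Of the 34 genes, 3 were up-regulated in Mgat1 cKO germ cells and 1 was lower, by limma with an adjusted p under 0.05 over all genes. The genes that rose were Pde1a, a calmodulin-dependent phosphodiesterase found in sperm, Pde4a, a cAMP-specific phosphodiesterase, and Adcy10. The gene that fell was Pde5a, the cGMP-specific phosphodiesterase of smooth muscle and other tissues. In the same test 6.07% of all genes were higher and 2.35% were lower, so the shares among these genes, 3 and 1 of 34, lay near that background. No gene of the 34 passed the test with a rise or a fall of over 2-fold, at an adjusted or at an unadjusted p under 0.05, and 2.53% of all genes rose that far. At an unadjusted p under 0.05, 3 were higher and 7 lower, against 9.55% and 14.5% of all genes. The mutant arrays all lay above the control arrays for 3 of the 34 genes, against 11.2% of all genes, and below for 9, against 20.1% of all genes. The median difference over the 34 genes was -0.09 on the log2 scale, and that over all genes was -0.05. An exact permutation test of 3 arrays against 3 cannot give a two-sided p under 0.1, so the limma test, which pools the spread over all genes, was used.

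**Figure D1:**
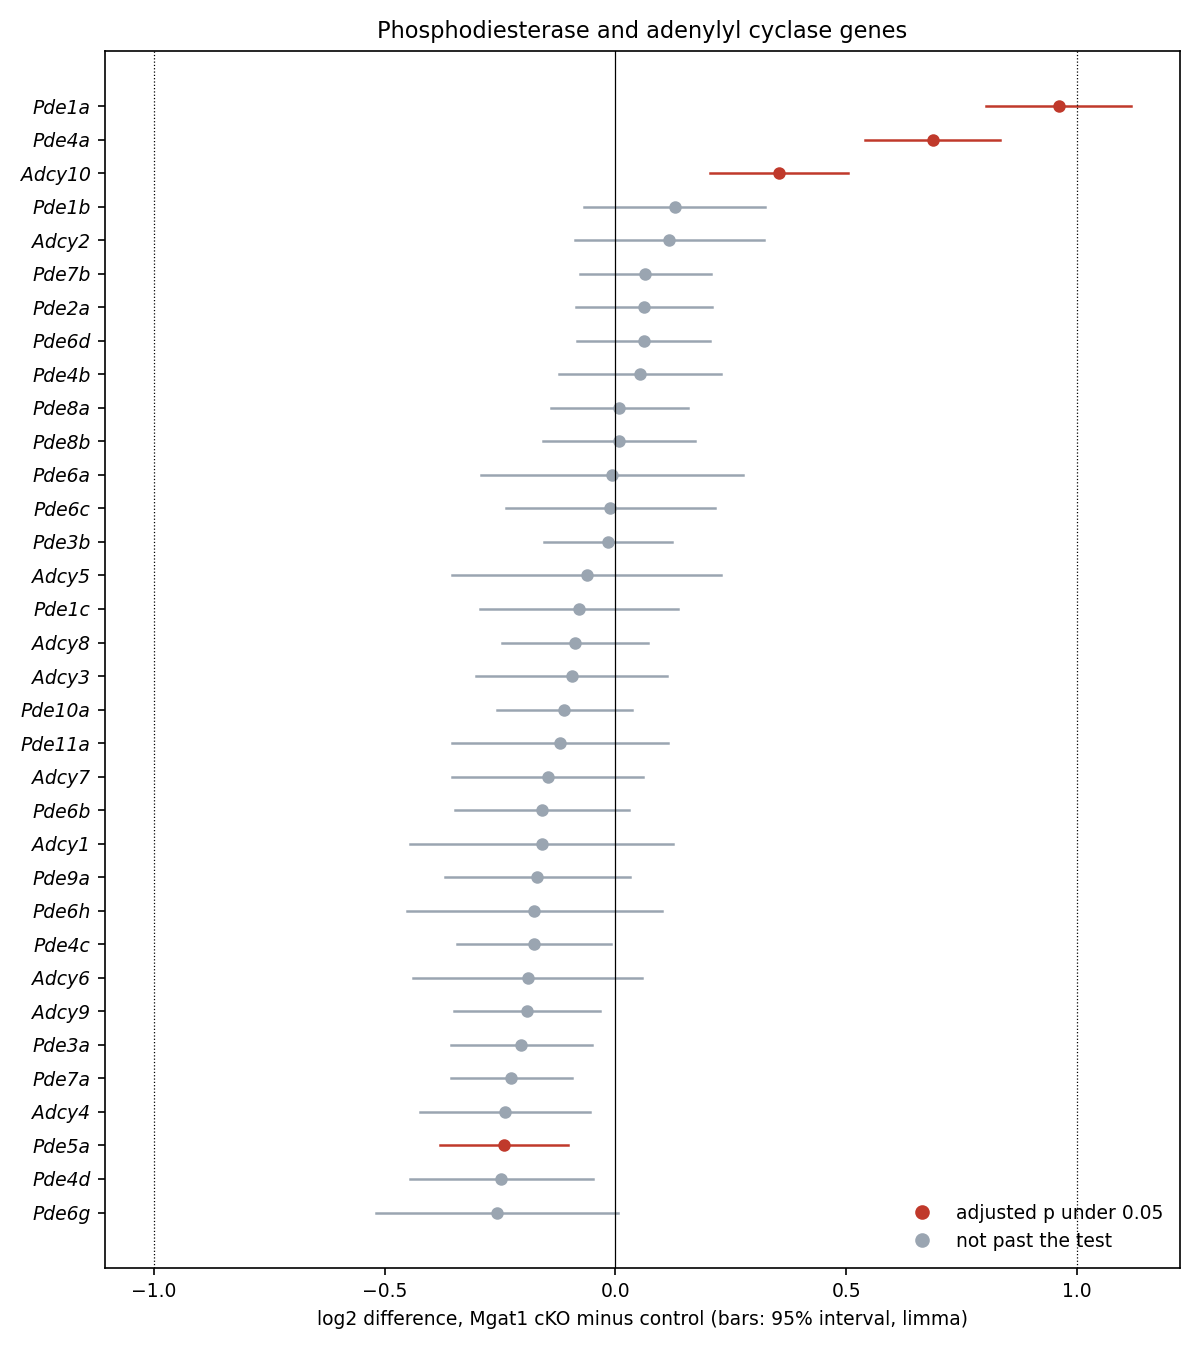
Log2 difference of each of the 34 genes between Mgat1 cKO and control germ cells (x axis, points) with the 95% interval of limma (bars), genes on the y axis in order of the difference, and dotted lines at a 2-fold change. Pde1a, Pde4a and Adcy10 stand to the right at 0.96, 0.69 and 0.35, and the other 31 genes lie between -0.26 and 0.13.

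The starts of the 3 genes that rose are shown first, because Pde1a and Pde4a each have several annotated starts and the probe sets of both genes moved unequally. RefSeq on GRCm38.p6 gave a promoter for 25 of the 34 genes, 49 promoters in all, with 4 for Pde1a, 3 for Pde4a and 1 for Adcy10. Each line runs 5′ to 3′ from 120 bases before the annotated start to 20 bases after it, and capitals mark the 6 letters TGACGT or their reverse complement ACGTCA, the core of the cAMP response element that CREB and CREM proteins bind.
Pde1a start 1, chr2:80129393-80129532, minus strand: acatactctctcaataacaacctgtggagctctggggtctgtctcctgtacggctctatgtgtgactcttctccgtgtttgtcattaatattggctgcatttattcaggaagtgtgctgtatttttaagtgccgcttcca
Pde1a start 2, chr2:80128952-80129091, minus strand: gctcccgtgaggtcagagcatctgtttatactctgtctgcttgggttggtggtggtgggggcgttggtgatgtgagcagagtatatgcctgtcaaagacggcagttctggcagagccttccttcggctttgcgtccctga
Pde1a start 3, chr2:80038883-80039022, minus strand: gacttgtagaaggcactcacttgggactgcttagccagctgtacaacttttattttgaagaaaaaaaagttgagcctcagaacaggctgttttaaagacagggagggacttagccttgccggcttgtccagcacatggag
Pde1a start 4, chr2:79908380-79908519, minus strand: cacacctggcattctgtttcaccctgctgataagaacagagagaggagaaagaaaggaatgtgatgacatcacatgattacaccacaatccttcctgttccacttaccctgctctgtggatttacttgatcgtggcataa
Pde4a start 1, chr9:21165594-21165733, plus strand: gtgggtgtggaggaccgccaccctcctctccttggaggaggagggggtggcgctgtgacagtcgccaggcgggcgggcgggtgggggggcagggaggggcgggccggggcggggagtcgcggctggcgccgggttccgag
Pde4a start 2, chr9:21183981-21184120, plus strand: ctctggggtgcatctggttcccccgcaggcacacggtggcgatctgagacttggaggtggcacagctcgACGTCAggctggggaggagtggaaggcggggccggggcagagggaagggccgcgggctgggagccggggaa
Pde4a start 3, chr9:21196585-21196724, plus strand: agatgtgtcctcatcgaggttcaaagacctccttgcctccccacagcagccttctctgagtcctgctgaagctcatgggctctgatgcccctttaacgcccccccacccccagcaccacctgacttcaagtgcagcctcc
Adcy10 start 1, chr1:165485063-165485202, plus strand: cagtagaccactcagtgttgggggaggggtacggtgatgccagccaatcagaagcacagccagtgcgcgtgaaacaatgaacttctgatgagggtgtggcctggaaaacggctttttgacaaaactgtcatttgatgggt
Among the starts printed, the last of Pde1a lies 221013 bases from the first and that of Pde4a 30991 bases from the first. The annotated span of Pde1a reaches chr2:80196522, upstream of its first printed start. That of Adcy10 begins at chr1:165483518, before its printed start, so earlier starts of both genes may be missing here. The full palindromic element, TGACGTCA, was in 0 of the 49 promoters of 300 bases, from 250 before to 50 after the start, searched on both strands, and in 1.79% of all 32851 promoters of that length. The shorter TGACGT, which is part of the longer motif, was in 3 of the 49, those of Adcy9, Pde4b and the second start of Pde4a, where it begins 51 bases before the start, and in 7.51% of all promoters. A match is a stretch of letters and was not tested as a binding site.

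Pde1a showed the largest rise among the 34 genes. Its gene level, the mean of 25 probe sets on the log2 scale, was 6.20, 6.19 and 6.29 on the control arrays and 7.25, 7.20 and 7.10 on the Mgat1 cKO arrays. All 3 mutant arrays lay above all 3 control arrays, with a gap many times the spread within a genotype. The means were 6.22 ± 0.06 and 7.18 ± 0.08 (SD, n = 3 arrays each), and the difference of 0.96 (SE 0.07, adjusted p = 3.62e-05) is 1.95-fold.

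Pde4a rose less at the level of the whole gene. Its gene level was 6.31, 6.33 and 6.23 on the control arrays and 7.00, 7.01 and 6.92 on the Mgat1 cKO arrays. The groups did not overlap, and the lowest mutant array stood 0.59 above the highest control array. The difference was 0.69 (SE 0.06, adjusted p = 0.000198), or 1.61-fold, from 6.29 ± 0.05 to 6.98 ± 0.05 (SD, n = 3 arrays each).

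Adcy10 rose by the smallest amount of the 3. Its level was 8.71, 8.71 and 8.69 on the control arrays and 9.10, 9.11 and 8.97 on the Mgat1 cKO arrays. The control arrays were nearly equal, and the third mutant array was lower than the other mutant arrays but above every control array. The difference was 0.35 (SE 0.06, adjusted p = 0.0123), or 1.28-fold, from 8.71 ± 0.01 to 9.06 ± 0.08 (SD, n = 3 arrays each). Without control replicate 3 the adjusted p was 0.0514 at a difference of 0.35.

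Pde5a was the only gene of the 34 that fell past the test. Its level was 6.64, 6.54 and 6.62 on the control arrays and 6.37, 6.33 and 6.36 on the Mgat1 cKO arrays. The mutant arrays were all lower, and the gap to the lowest control array was 0.16. The difference was -0.24 (SE 0.06, adjusted p = 0.0483), from 6.60 ± 0.05 to 6.36 ± 0.02 (SD, n = 3 arrays each). The call was lost in 10 of 14 alternatives, among them each of the 6 that left out 1 array, where the adjusted p was 0.0790 to 0.163, and the direction was kept in all 14. Pde7a, a cAMP-specific phosphodiesterase, lay just outside the threshold, with 7.50, 7.54 and 7.53 on the control arrays, 7.30, 7.28 and 7.32 on the Mgat1 cKO arrays and a difference of -0.23 (adjusted p = 0.0505).

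**Figure D2:**
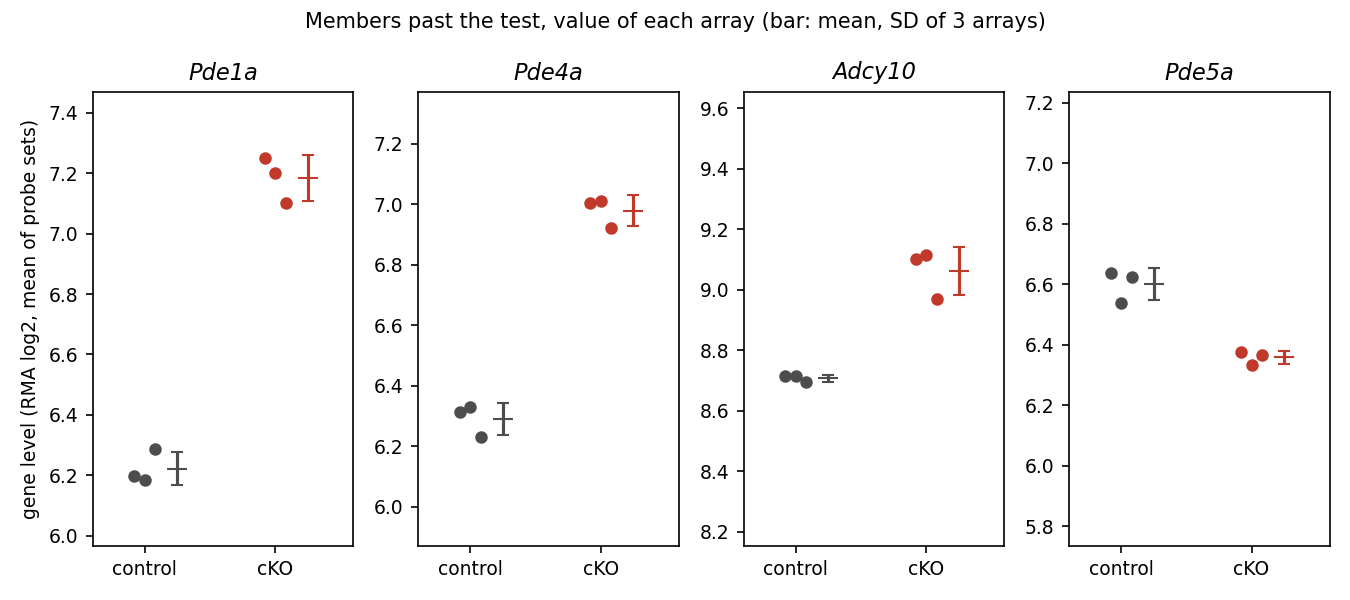
Gene level on each array (RMA log2, y axis, 1 point per array) of the 4 genes past the test in control and Mgat1 cKO germ cells (x axis), with bars for the mean and SD of 3 arrays, on axes of equal span but different position. Pde1a, Pde4a and Adcy10 are higher on all 3 mutant arrays, and Pde5a is lower on all 3.

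Beside these changes, markers of spermatids and of cells outside the germ line moved too. All 8 spermatid markers were higher in Mgat1 cKO germ cells, with the mean level of the list at 6.47 to 6.50 on the control arrays and 8.42 to 8.43 on the mutant arrays, Tnp1 and Prm1 among them at differences of 2.85 and 2.22. None of the 5 spermatocyte or 6 spermatogonial markers passed the test, with list levels of 9.78 to 9.96 and 7.17 to 7.21 on the control arrays and 9.61 to 9.68 and 7.05 to 7.08 on the mutant arrays. Beside the fall of Pde5a, 1 of 5 peritubular myoid markers was lower (list level 8.36 to 8.43 on the control arrays and 8.17 to 8.22 on the mutant arrays), as were 2 of 6 macrophage markers (6.65 to 6.76 and 6.49 to 6.59), 2 of 5 Leydig markers (8.14 to 8.35 and 8.19 to 8.36), 1 of 7 Sertoli markers (8.29 to 8.37 and 8.21 to 8.24) and 5 of 6 markers of epididymal epithelium (6.42 to 6.49 and 5.66 to 5.73). Of 4 endothelial markers 0 passed (6.44 to 6.47 and 6.19 to 6.36). Over all genes 2.35% were lower in this test and 64.5% had a lower mean. Of the 5 Leydig markers 3 had a lower mean. Insl3, measured by 1 probe set, and Hsd3b1 had higher means, at differences of 0.80 and 0.08, and neither passed. The array values have no true zero, and no marker was at 0. The part of these cells in the changes of Pde1a, Pde4a, Adcy10 and Pde5a was not tested, and in bulk RNA more or fewer cells of a type and more or less RNA per cell cannot be told apart. The gene level of Mgat1, the targeted gene, was 6.31 ± 0.13 in control and 6.30 ± 0.18 in Mgat1 cKO arrays (SD, n = 3 each), and since the sources used here do not place its probes relative to the deleted part, they check nothing about the labels.

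The 34 genes were covered by 696 probe sets, 7 to 34 per gene. Of these, 16 rose and 2 fell at the same threshold, adjusted over 269751 probe sets, against 1.87% of all probe sets higher and 0.18% lower. The 16 were 10 of Pde1a, 5 of Pde4a and 1 of Pde6b, and the 2 were 1 of Pde3a and 1 of Adcy4. Every mutant array lay above every control array for 62 of the 696 probe sets, against 8.66% of all probe sets, and below for 51, against 10.8%. The diffSplice F test of limma, which asks whether the probe sets of a gene differ in their change, called 3 of the 34 genes, Pde1a, Pde4a and Pde6b, against 7.44% of 20833 genes tested. The place of each probe set within its gene is not given in the sources used here, so probe sets are described in order of their number. The runs below were chosen after their values were seen and carry no test of their own. Each is the longest run under a rule that differed by gene, so the runs cannot be compared. For Pde1a the rule was a probe set past the test. For Pde4a it was every mutant array above every control array, and for Adcy10 a higher mutant mean.

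In Pde1a the probe sets that passed the test were 10 neighbours in number, at positions 7 to 16 of 25. Their mean was 7.85, 7.69 and 7.75 on the control arrays and 9.42, 9.38 and 9.36 on the Mgat1 cKO arrays. Each of the 10 had all mutant arrays above all control arrays, with differences of 1.26 to 1.85 and a mean difference of 1.63, or 3.09-fold, against 1.95-fold for the mean of all 25. The 6 probe sets before the run had a mean difference of 0.63 and the 9 after it 0.44, with differences of -0.22 to 1.79 and -0.84 to 2.71, and none of these 15 passed the test. Both parts were dimmer than the run. On the control arrays the 6 averaged 5.62, 5.77 and 6.10, and the 9 averaged 4.75, 4.79 and 4.79. Of the 25 probe sets 6 lay among the dimmest 25% of all probe sets. The part of these lower levels in the smaller differences was not tested. Outside the run, probe set 17387295, which lay among the dimmest 25% of all probe sets, had values of 3.45, 3.08 and 4.10 on the control arrays and 6.76, 6.73 and 5.26 on the mutant arrays and a difference of 2.71 (adjusted p = 0.0567). The largest difference inside the run was that of probe set 17387293, with 8.27, 8.21 and 8.69 on the control arrays, 10.27, 10.29 and 10.17 on the mutant arrays and a difference of 1.85 (adjusted p = 0.00281). The probe sets of Pde1a changed unequally (diffSplice F test, adjusted p = 1.27e-09). The number of its probe sets past the test fell from 10 to 6 without control replicate 2 and to 6 without Mgat1 cKO replicate 1.

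In Pde4a the split lay at 1 place in the order of probe set numbers. The 11 probe sets of lowest number, positions 1 to 11 of 19, overlapped between the genotypes in every case, with a mean of 6.01, 6.02 and 5.91 on the control arrays and 6.00, 5.95 and 5.80 on the Mgat1 cKO arrays. The 8 of highest number, positions 12 to 19, averaged 6.72, 6.76 and 6.68 on the control arrays and 8.39, 8.47 and 8.46 on the mutant arrays. All 8 had every mutant array above every control array, by the rule that chose them, and 5 of them passed the test. Differences of the 8 were 1.09 to 2.54 with a mean of 1.72, or 3.28-fold, whereas the first 11 ranged from -0.55 to 0.29 with a mean of -0.06. Probe set 17515119, the first of the 8, showed the largest change, from 6.99, 6.77 and 6.64 on the control arrays to 9.52, 9.36 and 9.13 on the mutant arrays, a difference of 2.54 (adjusted p = 0.000898). Probe set 17515124 followed with 2.33 (adjusted p = 0.0161). The diffSplice F test gave an adjusted p of 5.50e-09. The 5 probe sets that passed one by one were 8 with an intensity trend, and 3 without control replicate 1, without Mgat1 cKO replicate 2 and without Mgat1 cKO replicate 3.

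Adcy10 had no probe set past the test alone, and the first 28 of its 32 probe sets by number had a higher mutant mean, with differences of 0.15 to 1.13, and 18 of these had every mutant array above every control array. Of all 269751 probe sets, 113662 had a higher mutant mean, and 8.66% had every mutant array above. The mean of the 28 was 9.08, 9.10 and 9.07 on the control arrays and 9.55, 9.55 and 9.41 on the Mgat1 cKO arrays, a difference of 0.42. The last 4 overlapped between the genotypes, at -0.38 to 0.16 with a mean of -0.13. They were dimmer than the first 28, with a mean of 6.17, 6.03 and 6.07 on the control arrays. The part of this lower level in their lack of a rise was not tested. The F test for unequal probe sets did not pass the threshold for Adcy10 (adjusted p = 0.0666), but the Simes adjustment, the alternative form of that test, did (adjusted p = 0.0366).

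**Figure D3:**
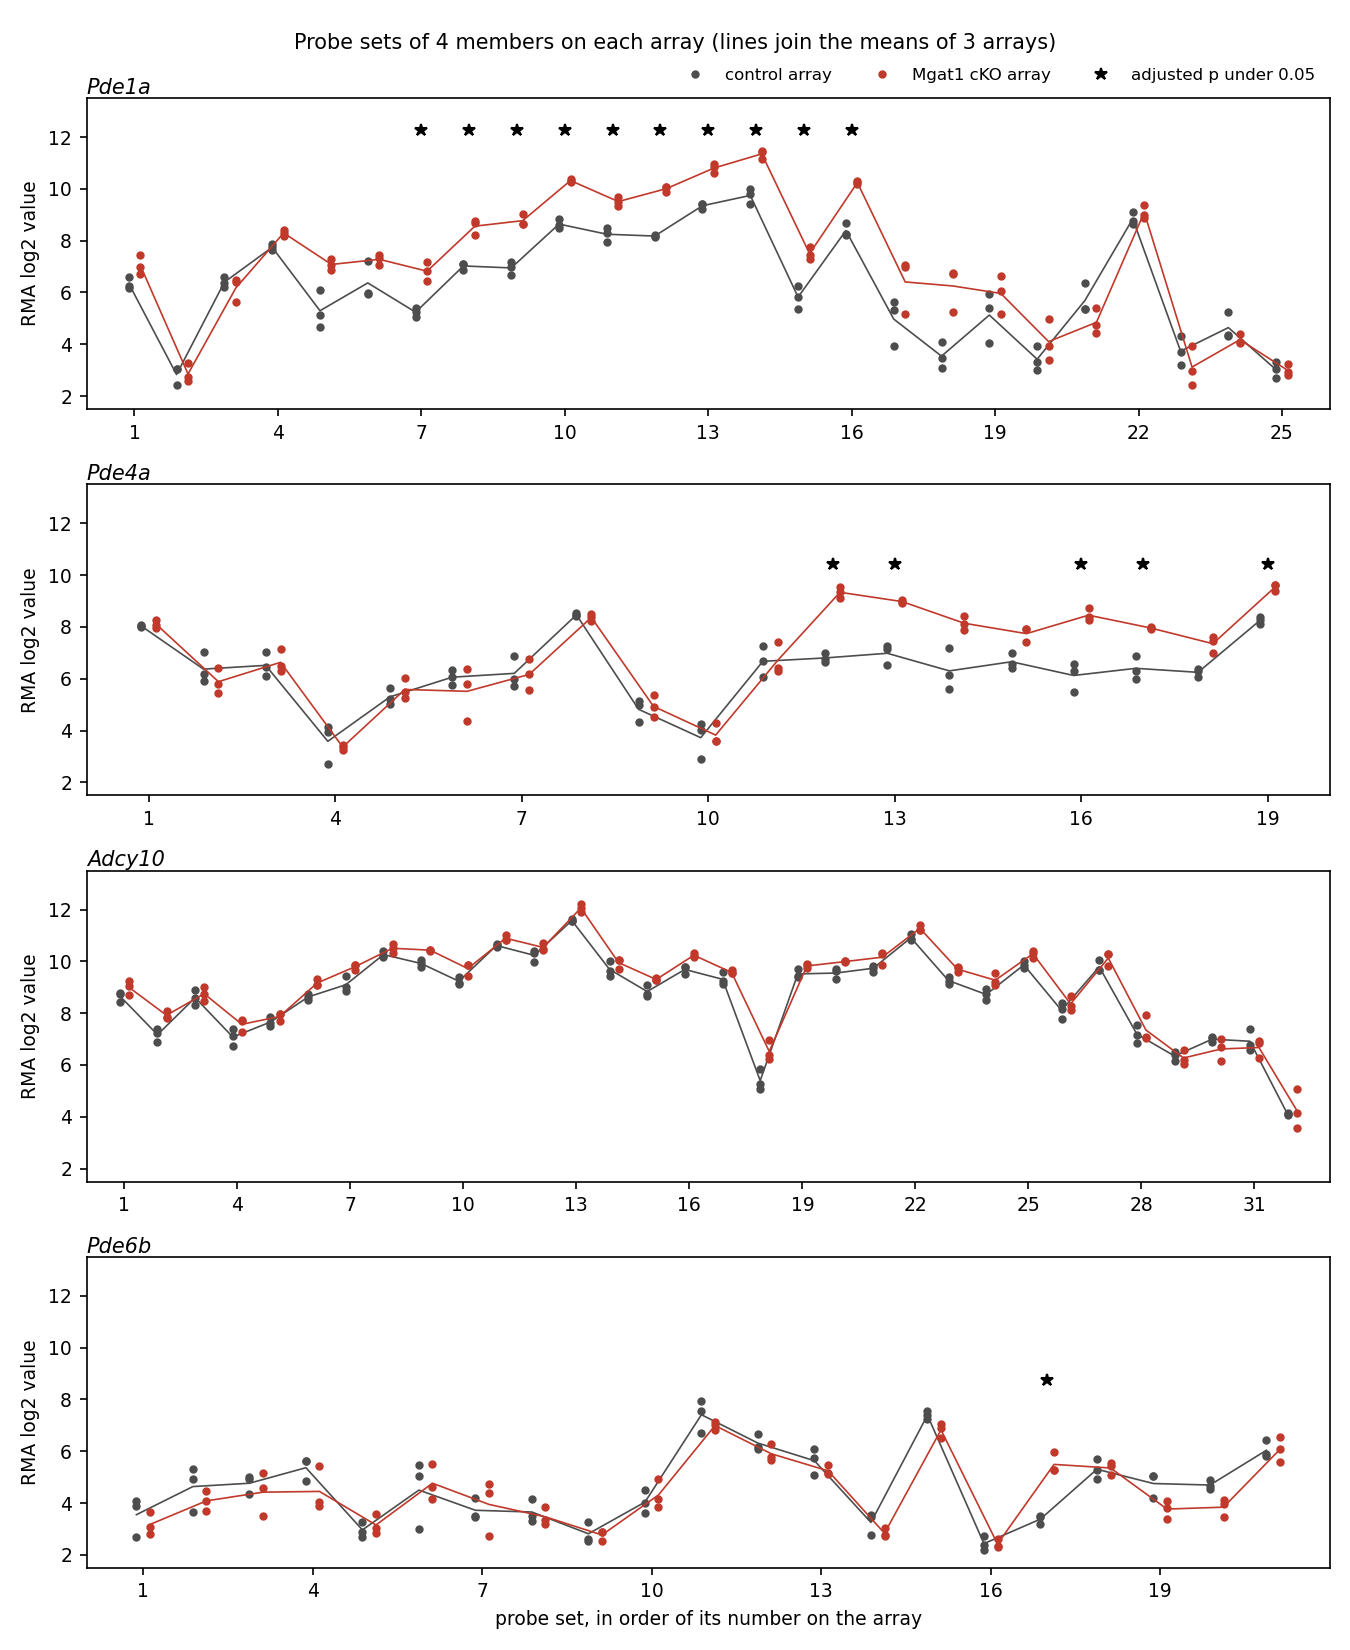
RMA log2 value (y axis) of each probe set of Pde1a, Pde4a, Adcy10 and Pde6b on each array (points; lines join the means of 3 arrays), in order of probe set number (x axis), with stars for an adjusted p under 0.05. The starred probe sets of Pde1a are positions 7 to 16, and the probe sets of Pde4a with no overlap are positions 12 to 19, whereas Adcy10 is slightly higher over positions 1 to 28 and Pde6b differs upward in 1 probe set.

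Pde6b, Pde3a and Adcy4 each had a single probe set that passed. Pde6b encodes a catalytic subunit of the rod photoreceptor enzyme, and its gene level differed by -0.16 (SE 0.08, adjusted p = 0.282). Its probe set 17440252 was at 3.19, 3.51 and 3.45 on the control arrays and 5.26, 5.26 and 5.96 on the Mgat1 cKO arrays, a difference of 2.11 (SE 0.22, adjusted p = 0.00717), while its other 20 probe sets ranged from -0.99, in probe set 17440254, to 0.28. Of its 21 probe sets 15, this one among them, lay in the dimmest 25% of all probe sets, and the diffSplice call of the gene (adjusted p = 0.0311) was lost with probe sets weighted by the spread at their level (0.0686), an alternative chosen after seeing the data, with dim probe sets left out (0.863), and without control replicate 2 (0.233), control replicate 3 (0.127), Mgat1 cKO replicate 2 (0.0804) or Mgat1 cKO replicate 3 (0.418). Pde3a encodes a phosphodiesterase that cGMP inhibits and that acts in oocytes, heart and platelets. Its probe set 17464043 was at 4.92, 5.30 and 4.63 on the control arrays and 3.19, 2.90 and 3.13 on the mutant arrays, a difference of -1.88 (SE 0.20, adjusted p = 0.00666), and the next largest, 17464058, differed by -0.73 (adjusted p = 0.435). Both lay among the dimmest 25% of probe sets, so neither has a value with dim probe sets left out. With the replicate number as a block, the limma call of 17464043 was lost (adjusted p = 0.0687). Adcy4 encodes a transmembrane cyclase that G protein beta and gamma subunits stimulate. Its probe set 17306878 was at 6.09, 5.96 and 6.00 on the control arrays and 5.11, 5.17 and 5.35 on the mutant arrays, a difference of -0.80 (SE 0.12, adjusted p = 0.0256) that was lost in 8 of 9 alternatives, with each of the 6 arrays left out in turn (0.0512 to 0.119) among them. Its largest differences, -1.47 in probe set 17306890 and 1.21 in 17306880, did not pass the test (adjusted p = 0.269 and 0.395).

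Among the phosphodiesterases that degrade both nucleotides, Pde1a, Pde1b, Pde1c, Pde2a, Pde3a, Pde3b, Pde10a and Pde11a, 1 of 8 rose and 0 fell. Over all genes 6.07% were higher and 2.35% lower, so counts in groups this small say little about a group. Pde1b and Pde1c, calmodulin-dependent like Pde1a, differed by 0.13 (SE 0.09, adjusted p = 0.400) and -0.08 (SE 0.09, adjusted p = 0.643), with overlapping arrays. Pde2a, which cGMP stimulates, differed by 0.06 and Pde3b by -0.02. Pde10a, best known from striatum and also expressed in testis, was at 7.84, 7.84 and 7.76 on the control arrays and 7.74, 7.74 and 7.64 on the Mgat1 cKO arrays. The groups did not overlap, but the difference of -0.11 (SE 0.06) did not pass the test (adjusted p = 0.327). Pde11a differed by -0.12 (SE 0.10, adjusted p = 0.509) and Pde3a by -0.20 (SE 0.07, adjusted p = 0.110).

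Against 6.07% of all genes higher and 2.35% lower, 1 of 8 cAMP-specific phosphodiesterases, Pde4a, rose and 0 fell. Its relatives Pde4b, Pde4c and Pde4d differed by 0.05, -0.18 and -0.25 (adjusted p = 0.705, 0.189 and 0.131). Pde4d, with 34 probe sets, was lower on all 3 mutant arrays, at 6.17, 5.97 and 6.25 against 6.31, 6.38 and 6.44 on the control arrays. Pde8a and Pde8b, high-affinity enzymes of which Pde8a acts in Leydig cells, showed the smallest changes of this group, with differences of 0.01 each and 95% intervals of -0.14 to 0.16 and -0.16 to 0.17. Pde7b differed by 0.07 (adjusted p = 0.552), in contrast in sign to Pde7a, but the difference between the 2 genes was not tested.

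The cGMP side held Pde5a and Pde9a, of which Pde9a differed by -0.17 (SE 0.09, adjusted p = 0.280), and the 6 genes of the photoreceptor enzyme. Of those 6, 0 passed the test at the level of the gene, against 6.07% of all genes higher and 2.35% lower. The catalytic subunits Pde6a, Pde6b and Pde6c differed by -0.01, -0.16 and -0.01, with 14 of 19, 15 of 21 and 18 of 20 probe sets among the dimmest 25%. The inhibitory subunits Pde6g and Pde6h differed by -0.26 (SE 0.11, adjusted p = 0.219) and -0.18 (SE 0.12, adjusted p = 0.410). Pde6d, which encodes a carrier of prenylated proteins with roles beyond the retina, had 0 of 8 probe sets in the dimmest quartile. It was at 10.78, 10.88 and 10.86 on the control arrays and 10.91, 10.94 and 10.86 on the Mgat1 cKO arrays, and the groups overlapped at a difference of 0.06 (SE 0.06, adjusted p = 0.585).

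Of the 9 transmembrane adenylyl cyclases, 0 rose and 0 fell past the test, against 6.07% and 2.35% of all genes. At an unadjusted p under 0.05 in limma 2 passed, both lower, against the 14.5% of all genes given above. Their differences ran from -0.24 to 0.12 with a median of -0.15, and 8 of 9 were below 0, as were 64.5% of all genes. The calmodulin-stimulated cyclases Adcy1, Adcy3 and Adcy8, of which Adcy3 serves olfactory cilia, differed by -0.16, -0.10 and -0.09 (adjusted p = 0.465, 0.551 and 0.477). Adcy5 and Adcy6, which calcium inhibits, differed by -0.06 and -0.19 (adjusted p = 0.799 and 0.324). Adcy2, Adcy4 and Adcy7, stimulated by G protein beta and gamma subunits, differed by 0.12, -0.24 and -0.15 (adjusted p = 0.457, 0.119 and 0.361). Adcy9, which responds little to forskolin, was at 7.56, 7.52 and 7.66 on the control arrays and 7.41, 7.44 and 7.31 on the mutant arrays, a difference of -0.19 (SE 0.07, adjusted p = 0.140) with no overlap. Whether Adcy10 differed in its change from the transmembrane cyclases was not tested.

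Genes that act before and after these enzymes in the pathway were counted from 4 lists of 57 genes, of which 53 were measured. In all, 3 of the 53 rose and 0 fell past the test over all genes, against 6.07% and 2.35% of all genes, with a median difference of -0.05, equal to that over all genes. Of 14 inputs to the cyclases (G protein alpha subunits, bicarbonate and proton transporters, and cyclase-associated proteins) 0 passed, and the widest difference was that of Cftr, 0.29 (adjusted p = 0.108). Of 11 guanylyl cyclase and natriuretic peptide receptor genes, which make cGMP, 0 passed, with the widest difference in Npr2, -0.25 (adjusted p = 0.101).

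Of 22 effectors, the subunits of protein kinases A and G, exchange factors, channels and other cyclic nucleotide binding proteins, 2 rose. The share over all genes was 6.07%. Cngb3, a subunit of the cGMP-gated channel of cone photoreceptors, was at 4.47, 4.23 and 4.38 on the control arrays and 6.16, 5.96 and 6.00 on the Mgat1 cKO arrays. The difference was 1.68 (SE 0.09, adjusted p = 5.74e-06), or 3.20-fold, with no overlap and 7 of 18 probe sets past the test. With medians of probe sets, an alternative added after seeing the data, it was 2.45, or 5.45-fold. Prkar2a, the type II alpha regulatory subunit of protein kinase A, which AKAP proteins anchor in the sperm tail, was at 6.71, 6.63 and 6.71 on the control arrays and 7.10, 7.25 and 7.16 on the mutant arrays, a rise of 0.49 (SE 0.07, adjusted p = 0.00214). The other protein kinase A genes, Prkaca, Prkacb, Prkar1a, Prkar1b and Prkar2b, lay between -0.13 and 0.07, and their adjusted p was 0.415 or higher.

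Of 6 regulators, 1 rose, against 6.07% of all genes. Pkib, which encodes an inhibitor of the catalytic subunit of protein kinase A, was at 4.82, 4.76 and 4.68 on the control arrays and 7.06, 6.82 and 6.60 on the Mgat1 cKO arrays. The difference of 2.07 (SE 0.11, adjusted p = 7.99e-06), or 4.20-fold, came with 5 of 9 probe sets past the test, and with medians of probe sets it was 2.73, or 6.65-fold. The control means of Cngb3 and Pkib, 4.36 and 4.76, lay below 5.05, the value under which the dimmest 25% of probe sets fall, so both folds rest on dim control values. That value was set on single probe sets, so it is only a rough guide for means of genes. Crem, the cAMP-responsive factor of spermatids, differed by 0.14 (SE 0.06, adjusted p = 0.202). The part of the 8 spermatid markers, all higher as given above, in the rises of Cngb3, Prkar2a and Pkib was not tested.

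**Figure D4:**
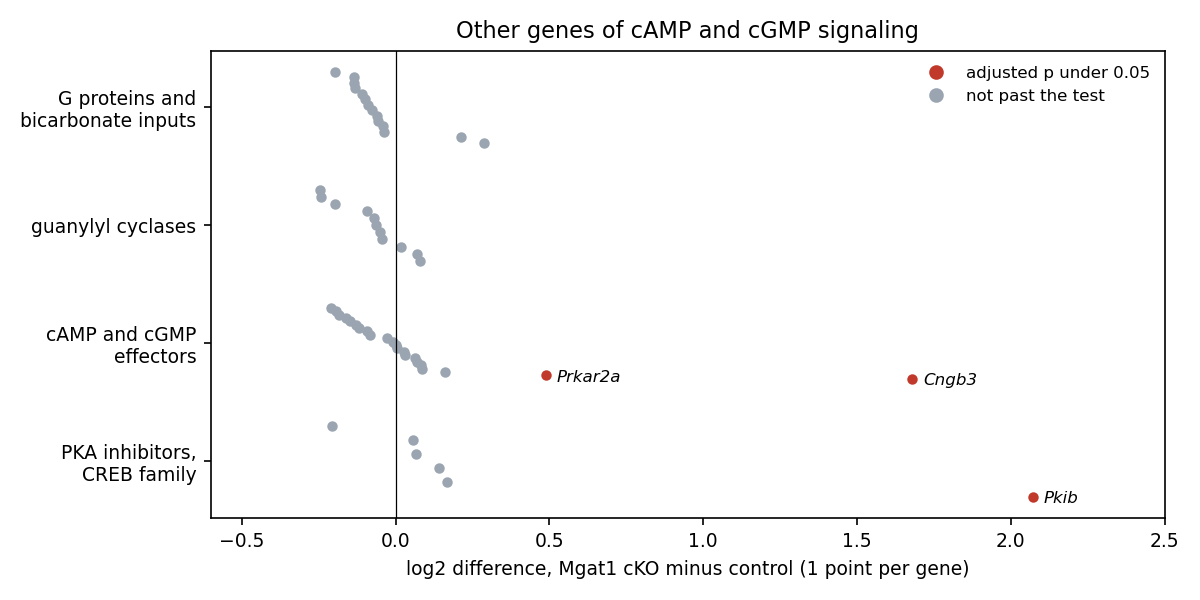
Log2 difference between Mgat1 cKO and control germ cells (x axis, 1 point per gene) of the 53 measured pathway genes in their 4 lists (y axis). Prkar2a at 0.49, Cngb3 at 1.68 and Pkib at 2.07 are past the test, and the other 50 genes lie between -0.25 and 0.29.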

How the data were processed

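Germ cell RNA of 23 dpp males was measured on 6 arrays, 3 per genotype, taken as replicates because the labels name them so. The authors made the deposited log2 values by RMA in Affymetrix Expression Console (version not given in the sources used here), at the level of exon probe sets. Of the probe sets, 233753 carried 1 gene symbol in GEO's platform annotation and were averaged, as log2 values, within each gene, and those with several or none were left out, among them 3 shared by Adcy3 and another gene. No filter on dim values was applied, and array medians were 6.85 to 6.87. Genes, and separately all probe sets, were fitted by lmFit and eBayes (no trend) of limma 3.58.1 under R 4.3.3, p-values were adjusted over all of them by the Benjamini-Hochberg method, and unequal probe sets were tested with limma's diffSplice. These 3 kinds of test were checked on simulated data, and as the outcome is not given here, the check lends the results no support. The figures come from matplotlib 3.10.9 under Python 3.11.15.

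The members and the lists were chosen with earlier results of these data known, so no list is independent support. Named were all genes past the test, members with a called probe set with their largest differences, and members of known role. Alternatives were the replicate number as a block, an analysis of variance, an intensity trend in eBayes, medians of probe sets, differences of medians, dim probe sets left out, array centring, repeated quantile normalization, a 1.5-fold threshold, Simes adjustment and each array left out. With 3 arrays per genotype, their number limits the precision.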

Additional observations from a re-analysis of the deposited data

How the results depend on the processing

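The 3 rises held in all alternatives but 1, since Adcy10 was lost without control replicate 3 (2 to 3 members higher). Differences ranged from 0.91 to 1.14 for Pde1a, 0.64 to 1.04 for Pde4a and 0.31 to 0.49 for Adcy10. Members lower, 1 as reported, were 2 with analysis of variance, 0 with the replicate block, 0 with medians of probe sets, 2 with dim probe sets left out, 3 with arrays centred, 2 with quantile normalization repeated, and 0 with each array left out. The 2 with dim probe sets left out did not include Pde5a (limma adjusted p = 0.150). With an intensity trend 1 member was lower, and it was not Pde5a (0.0602), so the gene called changed with the setting. Members higher by over 2-fold, 0 as reported, were 1 with medians of probe sets (Pde4a, 1.04), 1 with dim probe sets left out (Pde1a, 1.14), 2 at the 1.5-fold threshold, and 0 to 1 with each array left out, the 1 being Pde1a at 1.00 without Mgat1 cKO replicate 3. Pathway genes lower, 0 as reported, were 1 with analysis of variance, 2 with an intensity trend, 3 with arrays centred and 2 with quantile normalization repeated, all added after seeing the data. Probe sets of members higher, 16 as reported, were 24 with an intensity trend, 9 with the replicate block and 12 to 16 with each array left out. Probe sets lower, 2 as reported, were 1 with an intensity trend, 0 with the replicate block, 1 with dim probe sets left out and 1 to 2 with each array left out. Members with unequal probe sets, 3 as reported, were 5 with Simes adjustment (with Adcy10 and Pde1b added) and 2 to 4 with each array left out. The cause of these moves was not tested.

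The replicate numbers did not pair the arrays, since deviations of same-numbered arrays correlated at -0.02, -0.06 and -0.02 and 0 of 6 arrays correlated best with their own number. With the replicate block, 3 members were higher and Pde4a had 1 probe set past the test, against 5 as reported, and the probe set of Pde3a was at an adjusted p of 0.0687. The arrays hold aliquots of 1 pool per genotype, so variation between mice is not covered, and probe sets near background limit what can be seen of Pde6a, Pde6b and Pde6c.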

Other observations

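Among the 53 pathway genes the diffSplice F test called 5 with unequal probe sets, beside 7.44% of all genes tested. These were Cngb3 (adjusted p = 4.70e-07) and Pkib (2.24e-10), which also rose as genes, and Creb1 (3.95e-05), Atf1 (0.0311) and Rapgef4 (0.0456), whose gene levels did not pass the test. The gene level of Creb1, a cAMP-responsive transcription factor, differed by 0.06 (SE 0.08, adjusted p = 0.730), and 0 of its 10 probe sets passed alone.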
